A study of Mus musculus with 2 samples.

Results

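The cells described here are single cells of the newborn mouse hypothalamus that carried the RNA of Tcf7l2, a transcription factor of the TCF/LEF family whose expression marks the thalamus, the habenula and the pretectum in the developing diencephalon. Cells were chosen by 1 rule: at least 300 detected genes and at least 3 UMIs of Tcf7l2. A UMI (unique molecular identifier) marks 1 captured RNA molecule. The rule took 115 of 5260 cells, 17 of them in the Sim1 heterozygous library and 98 in the control library, and these are called Tcf7l2-gated cells. The comparison set was the 5145 other cells, 2437 Sim1 heterozygous and 2708 control.

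Cells were profiled by Drop-seq, a droplet method that catches each cell's RNA on a barcoded bead and reads transcript 3' ends. Each genotype was represented by 1 library, made from hypothalami pooled from 6 CD-1 pups of postnatal day 1 to 4. The Sim1 heterozygous mice were Sim1-Cre;tdTomato+/-;Sim1+/- and the control mice were Sim1-Cre;tdTomato+/-, so both groups carried Sim1-Cre and the Ai14 tdTomato reporter, and the heterozygous mice had in addition lost 1 copy of Sim1. Cells that excluded Sytox blue, a dye taken up by dead cells, and carried tdTomato were sorted. Ai14 is switched on for good by Cre, so the sort took cells that expressed Sim1-Cre or whose precursors had done so, and it did not require current Sim1 expression. The labels give the tissue as hypothalamus only, and pups within a pool could not be told apart.

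TCF/LEF proteins bind DNA through an HMG box and, together with beta-catenin, switch on targets of the canonical Wnt pathway. Tcf7l2 stays on in postmitotic thalamic neurons, where in mice it is needed for their regional identity and wiring. Most neurons of the thalamus proper release glutamate, and their developmental regulators include the homeodomain factors Gbx2, Lhx2 and Lhx9. Sim1, by contrast, is a bHLH-PAS factor needed for neurons of the paraventricular nucleus (PVN) of the hypothalamus, whose secretory cells make peptides such as vasopressin and oxytocin.

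The deposited tables held 24905 genes, 5283 barcodes and 11922773 UMIs, 5397693 in the Sim1 heterozygous library and 6525080 in the control library, and the libraries shared 0 barcodes. Tcf7l2-gated cells were deeper than the rest: the median was 3936 UMIs (range 583 to 10525) in Sim1 heterozygous gated cells and 2455 (711 to 7706) in control gated cells, against 1573 and 1752 in other cells of the same libraries. Gated cells summed to 75360 UMIs in the Sim1 heterozygous library and 306479 in the control library. The 5 deepest gated cells held 56.6% of that sum in the Sim1 heterozygous library and 12.2% in the control library, so Sim1 heterozygous levels rest on few cells. Levels are given as CPM, UMIs per 1000000 UMIs summed over the cells of a class in 1 library. Reads came from transcript ends, so a level is not divided by length, and levels are compared between classes, not between genes.

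Tcf7l2 lies on chromosome 19 (mm10, 55741820 to 55933654, plus strand, GENCODE M21). Its level in gated cells was 3039 CPM in the Sim1 heterozygous library and 3207 CPM in the control library, which the rule itself set. A gated cell had a median of 8 Tcf7l2 UMIs in both libraries, with a highest value of 32 in a Sim1 heterozygous cell and 48 in a control cell. The gated cells, 0.693% and 3.49% of their libraries, held 90.5% and 92.3% of all Tcf7l2 UMIs of the Sim1 heterozygous and control libraries. Tcf7l2 RNA was thus concentrated in few cells: 5067 cells had 0 UMIs, 50 had 1 and 28 had 2.

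Cells on either side of the threshold differed by degree. At least 1 UMI of any of 5 other thalamic-type markers (Lhx9, Shox2, Prox1, Kitl and Nek7) was found in 7.22% of cells with 0 Tcf7l2 UMIs, in 34.0% with 1, in 53.6% with 2, in 83.3% with 3, in 61.5% with 4, in 85.4% with 5 to 9 and in 97.6% of the 42 cells with 10 or more. Just inside the threshold, Lhx9 was found in 9 of 12 cells with 3 Tcf7l2 UMIs and in 4 of 13 cells with 4. Just outside it, Lhx9 was found in 8 of 28 cells with 2. From 2 to 3 UMIs, the share of cells rose for Prox1 (7.14% to 33.3%) and Shox2 (10.7% to 16.7%). That share fell for Kitl (35.7% to 33.3%) and Nek7 (17.9% to 8.33%). Median depth was 4819 UMIs in cells with 10 or more Tcf7l2 UMIs and 1689 in cells with 0, so deeper cells had more chance to show any marker. Its part in this gradient was not tested.

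**Figure D1:**
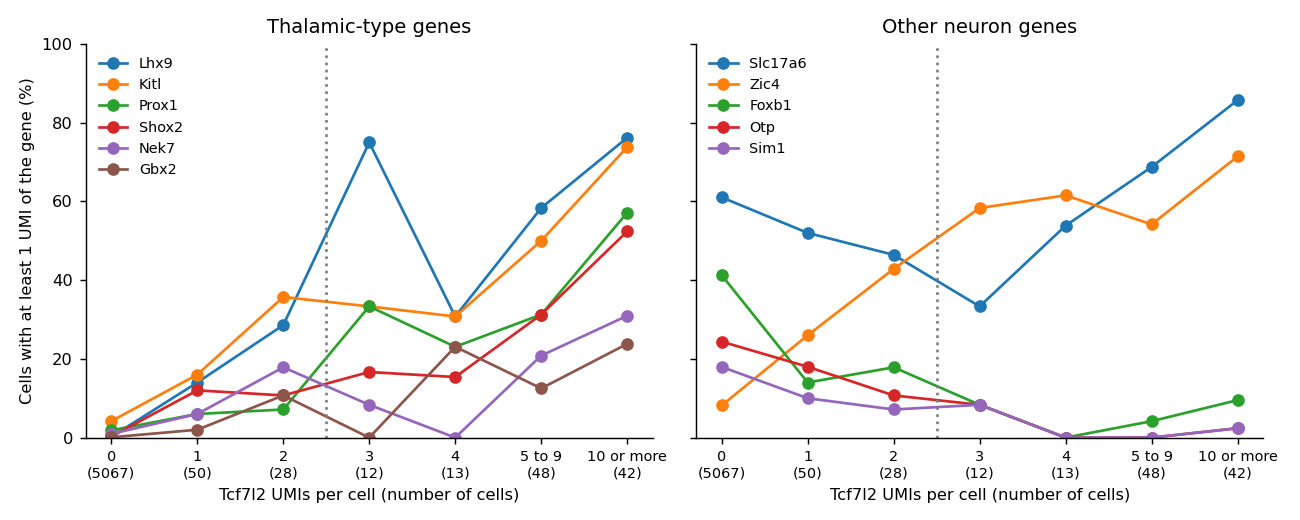
Percent of cells with at least 1 UMI of a gene (y axis) by Tcf7l2 UMIs per cell (x axis, number of cells in brackets), both libraries together, with the threshold as a dotted line. Lhx9 stands at 28.6% of cells with 2 Tcf7l2 UMIs, 75.0% with 3 and 30.8% with 4. Foxb1 stands at 41.2% of cells with 0.

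The 5 other markers were named with results of these data known, so their levels are a description and carry no test. Lhx9 (chromosome 1, 138825186 to 138848577, minus strand) encodes a LIM-homeodomain factor of thalamic neurons. It had 252 CPM in Sim1 heterozygous and 434 CPM in control gated cells, against 1.88 and 4.50 CPM in the other cells of those libraries. Shox2 (chromosome 3, 66971727 to 66981771, minus strand), a short-stature homeobox factor, had 279 and 206 CPM in Sim1 heterozygous and control gated cells, against 2.63 and 2.57 CPM in other cells. Both genes were high in gated cells of both libraries and low over all other cells summed. Of 38 Lhx9 UMIs in other cells, 30 lay in 44 cells that clustered with most gated cells (described below). For Shox2, 13 of 30 UMIs did.

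Prox1 (chromosome 1, 190118035 to 190170714, minus strand), a homeodomain factor of differentiating neurons, had 438 and 330 CPM in Sim1 heterozygous and control gated cells, against 10.3 and 15.1 CPM in other cells. Kitl (chromosome 10, 100015630 to 100100416, plus strand), which encodes the ligand of the receptor tyrosine kinase Kit, had 610 and 835 CPM in Sim1 heterozygous and control gated cells, against 32.5 and 29.9 CPM in other cells. Nek7 (chromosome 1, 138482875 to 138620141, minus strand), a NIMA-related kinase, had 53.1 and 97.9 CPM in Sim1 heterozygous and control gated cells, against 4.70 and 7.08 CPM in other cells. All 5 were higher in the gated cells of both libraries, which their choice from these data made likely. No source used here gives the strand setting of the counting, so reads of Shox2 and the antisense gene Rsrc1, or of Prox1 and Prox1os, cannot be told apart.

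A gene's share of cells also depends on depth and on free RNA in the droplets, so shares were set beside those of 137 cells with at least 10 vasopressin (Avp) UMIs, a neuron type that should lack thalamic genes. Lhx9 was found in 63.5% of gated cells, 0.486% of other cells and 0% of Avp-rich cells, at median depths of 2650, 1687 and 2225 UMIs. After each cell was thinned to 1000 UMIs, which left 108 gated and 125 Avp-rich cells, Lhx9 was found in 36.1% of gated cells (95% Clopper-Pearson interval 27.1% to 45.9%) and in 0.297% of other cells. In Avp-rich cells it was found in 0 of 125, which allows a share of up to 2.40% of cells with a UMI. Thinned shares in gated cells were 37.0% for Kitl, 21.3% for Prox1, 13.9% for Shox2 and 5.56% for Nek7, against 0.8%, 0.8%, 0% and 0.8% in Avp-rich cells. At this matched depth Nek7 and Gbx2 were found in 6 of 108 gated cells each.

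The question of which genes set Tcf7l2-gated cells apart from all other cells was put to summed counts. UMIs were summed per class and library (4 sums) and fitted with edgeR's quasi-likelihood test with the library as a block, with Tcf7l2 left out. Thalamic regulators and Sox2 were higher in gated cells, and regulators and peptides of the PVN, the mammillary region and other hypothalamic neurons were lower. Of 13405 genes tested, 207 (1.54%) had an adjusted p under 0.05, 84 (0.627%) higher and 123 (0.918%) lower, and the median log2 fold change of all genes was -0.10. Without the TMM scaling, the split was 107 higher and 94 lower. The fit had 1 residual degree of freedom, from 2 libraries of different genotype. Its prior weight was infinite, so the spread was shared across genes (common dispersion 0.0106). Thus p-values and standard errors do not reflect how far a gene's own values differed between the libraries. Cells are not replicates, and UMIs of 1 cell are not independent, so p-values for genes carried by few cells are too small.

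Gbx2 (chromosome 1, 89927956 to 89931179, minus strand), a homeobox gene needed for thalamic differentiation in mice, had 26.5 CPM in Sim1 heterozygous and 81.6 CPM in control gated cells, against 0.188 and 1.45 CPM in other cells. Its log2 fold change was 5.86 ± 0.86 (SE, edgeR adjusted p = 3.49e-09). The Sim1 heterozygous level came from 2 UMIs in 1 cell and the control level from 25 UMIs in 18 cells. In the main fit, Gbx2 met the filter on low counts only by its gated sums, since its levels in other cells were too low for it. That favours genes high in gated cells, and Gbx2 also passed when no such filter was used. Against other cells matched on depth, Gbx2 was left out by the filter on low counts and was not tested. The LIM-homeodomain gene Lhx2 had 39.8 and 111 CPM in Sim1 heterozygous and control gated cells, against 2.07 and 6.43 CPM in other cells, a log2 fold change of 4.08 ± 0.52 (edgeR adjusted p = 4.04e-12). Foxp2, a forkhead factor of thalamic and cortical projection neurons, had 159 and 189 CPM in gated cells and 19.4 and 27.0 CPM in other cells, in the same order of libraries, with a log2 fold change of 2.80. Lhx2 and Foxp2 were higher in gated cells of both libraries, as the rule for naming them required.

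The HMG-box factor gene Sox2 (chromosome 3, 34650405 to 34652461, plus strand) rose 3.39 ± 0.37 on the log2 scale (edgeR adjusted p = 4.89e-17), at 199 and 131 CPM in Sim1 heterozygous and control gated cells against 12.4 and 14.3 CPM in other cells. Its host transcript Sox2ot rose by 3.43, but it overlaps Sox2 on the same strand and counts of the pair cannot be told apart. The nuclear receptor gene Nr2f1 rose by 2.88, with a log2 ratio of gated over other cells of 4.10 in the Sim1 heterozygous and 2.29 in the control library.

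Other genes named by rank were the galectin gene Lgals1 (log2 fold change 5.27), the secreted Wnt inhibitor gene Wif1 (4.46), the myosin light chain kinase gene Mylk (4.18), the T cell receptor constant-region gene Trbc2 (3.16) and Pdzrn3 (3.03), which encodes a ubiquitin ligase with PDZ domains. All 16 Sim1 heterozygous Lgals1 UMIs came from 1 cell, as did the 3 of Wif1 and the 3 of Mylk. The Lgals1 log2 ratio was 7.06 in the Sim1 heterozygous library and 4.57 in the control library. In the control library Lgals1 was found in 12 gated cells, Wif1 in 9 and Mylk in 17.

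Several peptide genes of hypothalamic neurons were lower in gated cells. Pmch, the melanin-concentrating hormone gene, had 13.3 and 13.1 CPM in Sim1 heterozygous and control gated cells, against 382 and 1402 CPM in other cells (log2 fold change -6.53). Avp, the vasopressin gene, had 13.3 and 68.5 CPM in gated cells, against 1491 and 5761 CPM in other cells, with a log2 fold change of -6.46 (edgeR adjusted p = 1.27e-186). Avp was found in 19 gated cells (16.5%), with at most 2 UMIs in any, and in 17.2% of other cells. Oxt, the oxytocin gene, fell by 5.34 on the log2 scale and the corticotropin-releasing hormone gene Crh fell by 4.51.

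Sim1 itself, the gene whose Cre line labelled the cells, had 0 UMIs in Sim1 heterozygous and 2 UMIs in control gated cells, against 494 and 730 UMIs in other cells. That is 0 and 6.53 CPM in gated cells against 92.9 and 117 CPM in other cells, a log2 fold change of -4.47 ± 0.64 (edgeR adjusted p = 1.18e-09). Otp, the homeodomain factor of PVN neurons, fell by 5.48 and was found in 2 gated cells. Foxb1, a forkhead factor of the mammillary region, fell by 4.76, and the LIM-homeodomain gene Lhx5 fell by 5.05. Nxph4, a neurexophilin gene, had 0 UMIs in gated cells against 464 and 423 in other cells, which is at least 9.79-fold lower when 0 is set to 3 UMIs over the gated cells of both libraries.

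Apoe, an astrocyte-enriched lipoprotein gene, fell by 5.89 and was found in 1 gated cell. For Apoe and Oxt the difference depended on the threshold: with at least 2 Tcf7l2 UMIs neither passed, with log2 fold changes of -0.84 for Apoe and -0.68 for Oxt. With DESeq2, Crh, Lhx5 and Nxph4 did not pass.

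**Figure D2:**
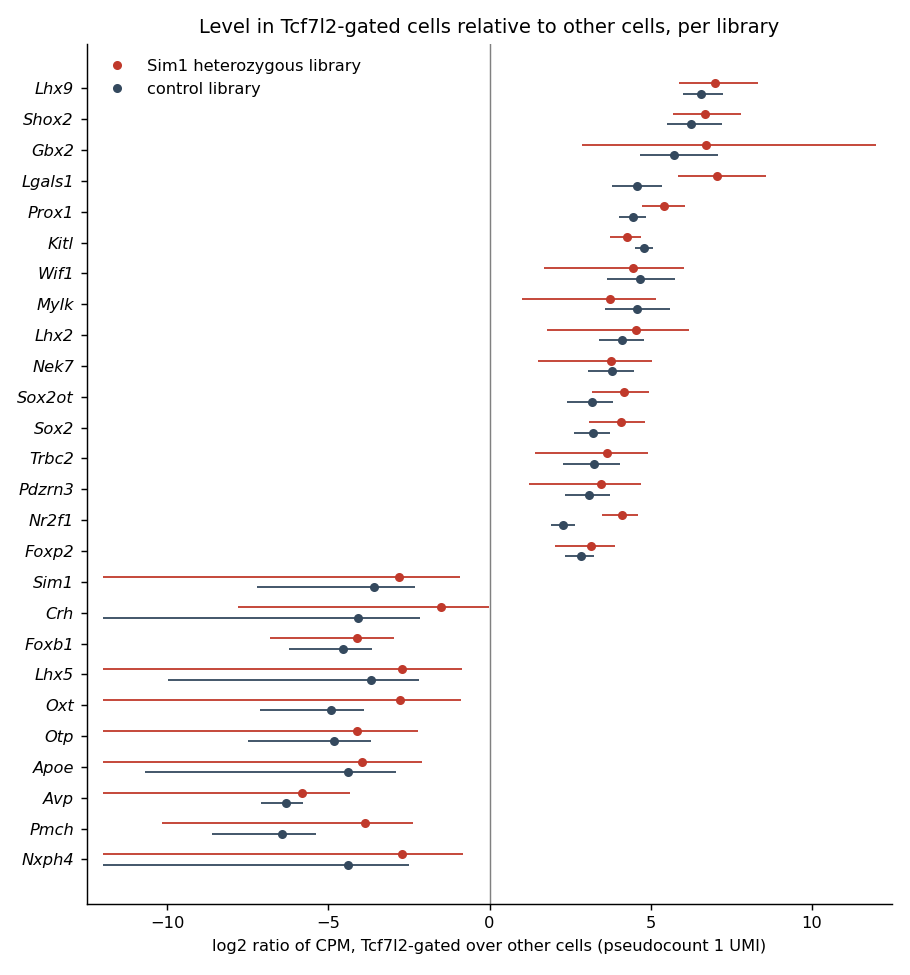
The log2 ratio of CPM in Tcf7l2-gated over other cells (x axis) for the 26 named genes (y axis), for the Sim1 heterozygous library above the control library, with 95% conditional exact intervals for counting error drawn to at most 12 on either side. Named genes sit on 1 side of 0 in both libraries, as the rule for naming them required.

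Genes of the thalamus were examined as a list. Over all genes tested, 0.627% were higher and 0.918% lower, and list counts here and below stand beside these shares. Of 14 glutamatergic thalamus genes, 12 were tested and 7 rose (Gbx2, Lhx2, Lhx9, Rora, Foxp2, Ntng1 and Calb2), with none lower and a median log2 fold change of 1.30, beside -0.10 for all genes. Rora, a retinoid-related orphan receptor gene, had 39.8 and 108 CPM in Sim1 heterozygous and control gated cells, against 19.2 and 19.3 CPM in other cells. The axonal netrin-G1 gene Ntng1 rose by 1.35 and the calretinin gene Calb2 by 1.26. Lhx9 is also among the gate markers. The whole list was drawn up with earlier results of these data known, so its counts are a description and not separate evidence. Rorb and the T-type calcium channel gene Cacna1g did not pass, with log2 fold changes of 0.25 and -0.08. With DESeq2, 5 of the 7 passed, without Rora and Calb2.

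Neighbouring territories were less evenly represented. Of 6 tested habenula genes, Gng8, a G-protein gamma subunit gene, passed as higher and the tachykinin gene Tac1 as lower. Gng8 came from 15 UMIs in 6 control cells, with 0 in Sim1 heterozygous gated cells, and its log2 fold change of 2.51 became -0.44 at a threshold of 5 Tcf7l2 UMIs. The habenular factor gene Pou4f1 had 3 UMIs in 1 gated cell. Of 2 tested pretectal and midbrain genes, Otx2 rose by 2.41 (28 UMIs in 14 gated cells) and Lhx5 fell, and neither passed with DESeq2. The prethalamus and zona incerta genes Dlx1, Dlx2, Dlx5, Dlx6, Isl1, Meis2, Pax6 and Lhx6 had 0 UMIs in gated cells. So did 4 of 7 rostral thalamus genes (Sox14, Gata2, Gata3 and Tal2). These genes were rare in other cells too. The prethalamus list summed to 19.2 and 31.0 CPM in Sim1 heterozygous and control other cells. Sox14, Gata2, Gata3 and Tal2 had 15, 1, 3 and 3 UMIs in all other cells, so these zeros say little.

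Hypothalamic lists pointed the other way, beside 0.918% of all genes tested that were lower. Of 10 PVN genes, 8 fell (Sim1, Otp, Uncx, Avp, Oxt, Crh, Trh and Sst) and none rose, with a median log2 fold change of -4.20. Of 10 tested mammillary genes, 7 fell, among them Foxb1, Lhx1, Emx2 and Rprm, with a median of -4.38, or -1.94 when genes at 0 were set at their bound. Emx2, a homeobox gene, had 0 UMIs in gated cells and was at least 6.54-fold lower. Rprm, a p53-target gene abundant in these libraries, was among the 7, at 491 and 395 CPM in Sim1 heterozygous and control gated cells against 965 and 551 CPM in other cells. Of 9 other tested hypothalamic genes, Pmch, Npy and Fezf1 fell. With DESeq2, 6 of the 8 PVN genes passed (not Crh or Trh), 2 of the 7 mammillary genes (Foxb1 and Lhx1) and 1 of the other 3 (Pmch). Against other cells matched on depth, Rprm did not pass. Fezf2, Crh, Pmch, Npy and Fezf1 were left out of that fit by its filter on low counts and so were not tested in it.

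The gated cells had neuronal RNA. The growth-associated stathmin gene Stmn2 was found in 114 of 115 gated cells and Tubb3, a neuronal tubulin gene, in 112 (17 Sim1 heterozygous and 95 control). Of 10 neuronal genes only the synaptotagmin gene Syt1 passed, rising by 0.70, and it did not pass with DESeq2 or without that block. None of 8 young neuron genes passed. Slc17a6, the vesicular glutamate transporter gene of subcortical neurons, was found in 80 gated cells (69.6%) and in 60.9% of other cells, with a log2 fold change of 0.34 ± 0.15 (edgeR adjusted p = 0.416). The GABA synthesis gene Gad2 was found in 2 gated cells and Gad1 in 0. The 3 tested genes of GABA release had a median log2 fold change of -1.64, and none passed. Summed over all gated cells, the neuronal, glutamatergic and thalamic markers did not go against the label of thalamic-type neurons. These marker lists were drawn up with earlier results of these data known, so this is no independent check of the label. Slc17a6 was common in both classes and does not bear on the thalamic part of the label. Of 32 gated cells outside the main cluster described below, 13 had none of the other 5 gate markers. The label is weaker for those 32.

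Markers of other cell types were mixed. All 7 endothelial and mural, 5 fibroblast and 7 cycling genes had 0 UMIs in gated cells. Of 11 tested astrocyte and radial glia genes, 5 fell (Slc1a3, Aqp4, Fabp7, Apoe and Mt1), with Slc1a3, Aqp4 and Mt1 at 0. None of these 5 passed at a threshold of 2 Tcf7l2 UMIs, and Apoe and Fabp7 alone passed with DESeq2 or without the library block. The summed level of that list was 173 CPM in Sim1 heterozygous and 131 CPM in control gated cells, against 625 and 521 CPM in other cells. Slc1a2, a glutamate transporter gene of the same list, did not pass, at 62.9 CPM in gated and 62.7 CPM in other cells of both libraries together. Oligodendrocyte genes summed to 26.5 and 55.5 CPM in Sim1 heterozygous and control gated cells, against 71.9 and 84.3 CPM in other cells. Microglial genes summed to 26.5 CPM (2 UMIs) and 9.79 CPM (3 UMIs) in Sim1 heterozygous and control gated cells, against 11.1 and 24.4 CPM in other cells. Pituitary genes summed to 0 and 228 CPM in Sim1 heterozygous and control gated cells, against 0.564 and 353 CPM in other cells. Nearly all of this was the growth hormone gene Gh, which had 0 UMIs in Sim1 heterozygous cells. It was found in 45 of 98 control gated cells (at most 5 UMIs) and 906 of 2708 other control cells. Any pituitary gene was found in 45.9% of control gated and 34.5% of other control cells. Over both libraries Gh was found in 39.1% of gated and 17.6% of other cells. After thinning, it was found in 13.9% of gated, 10.8% of other and 18.4% of Avp-rich cells. Gated cells were mostly control, so these pooled shares also depend on the mix of libraries.

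Tcf7l2 acts with the Wnt pathway, so its other members were counted, beside 0.627% higher and 0.918% lower over all genes tested. Of 35 tested, 5 rose (Lef1, Ctnnb1, Nkd1, Wif1 and Wnt3), 2 fell (Sfrp1 and Tle4) and 28 did not pass, with a median log2 fold change of 0.12. Lef1, a factor of the same DNA-binding family, had 53.1 and 42.4 CPM in Sim1 heterozygous and control gated cells, against 5.64 and 4.34 CPM in other cells (log2 fold change 3.19 ± 0.71, edgeR adjusted p = 0.000989). The other family members Tcf7 and Tcf7l1 were at 0 in gated cells.

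Ctnnb1, the beta-catenin gene, was abundant in both classes and rose by 0.61. The feedback inhibitor gene Nkd1 rose by 3.45 from 12 UMIs, and the ligand gene Wnt3 rose by 2.41. Nkd1 and Wif1 were at 2.43 and 2.34 CPM in other cells of both libraries together. They met the filter on low counts at least in part by their gated sums, and both also passed without it. The secreted Wnt antagonist gene Sfrp1 fell by 2.82 and the Groucho co-repressor gene Tle4 fell by 1.72. The target gene Axin2 had 6 UMIs in gated cells and a log2 fold change of 0.50 that did not pass. With DESeq2, 2 of the 5 higher genes passed (Lef1 and Wif1) and 0 of the 2 lower ones. Ctnnb1 was also lost without the library block, without the filter on low counts, at thresholds of 2 and 5 Tcf7l2 UMIs and without cells of over 10000 UMIs. Nkd1 was left out by the filter, and not tested, without cells of over 10000 UMIs and against other cells matched on depth.

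Few genes of wiring and excitability passed. Over all genes tested, 1.54% passed (0.627% higher and 0.918% lower), so 1 gene passing in a list is not a result about that list. Of 44 axon guidance genes, 2 rose (Ntng1 and the semaphorin receptor gene Plxna2) and 3 fell. The semaphorin co-receptor genes Nrp1 and Nrp2 fell by 2.80 and 1.59, and the ephrin receptor gene Ephb1 by 2.52. Nrp1 had 66.3 and 39.2 CPM in Sim1 heterozygous and control gated cells, against 344 and 290 CPM in other cells. Of 23 cadherins, Cdh7 and Pcdh18 rose and Cdh11 fell. Of 18 firing and calcium channel genes only Cacna2d1 passed, falling by 1.73, and of 23 glutamate receptor genes only Gria2 did, falling by 0.71. None of 25 potassium channel genes, 16 GABA and glycine receptor genes or 6 thyroid hormone response genes passed. Of 14 genes of prohormone processing and granins, 4 fell (Pam, Scg2, Scg5 and Chgb), by 0.56 to 1.59. With DESeq2, Ntng1, Nrp1, Nrp2 and Cacna2d1 passed, and the other genes of these lists did not. Without the library block, Plxna2, Pcdh18, Gria2, Scg2, Scg5 and Chgb did not pass either. The log2 ratio of Cdh7 was 3.59 in the Sim1 heterozygous and 1.33 in the control library.

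**Figure D3:**
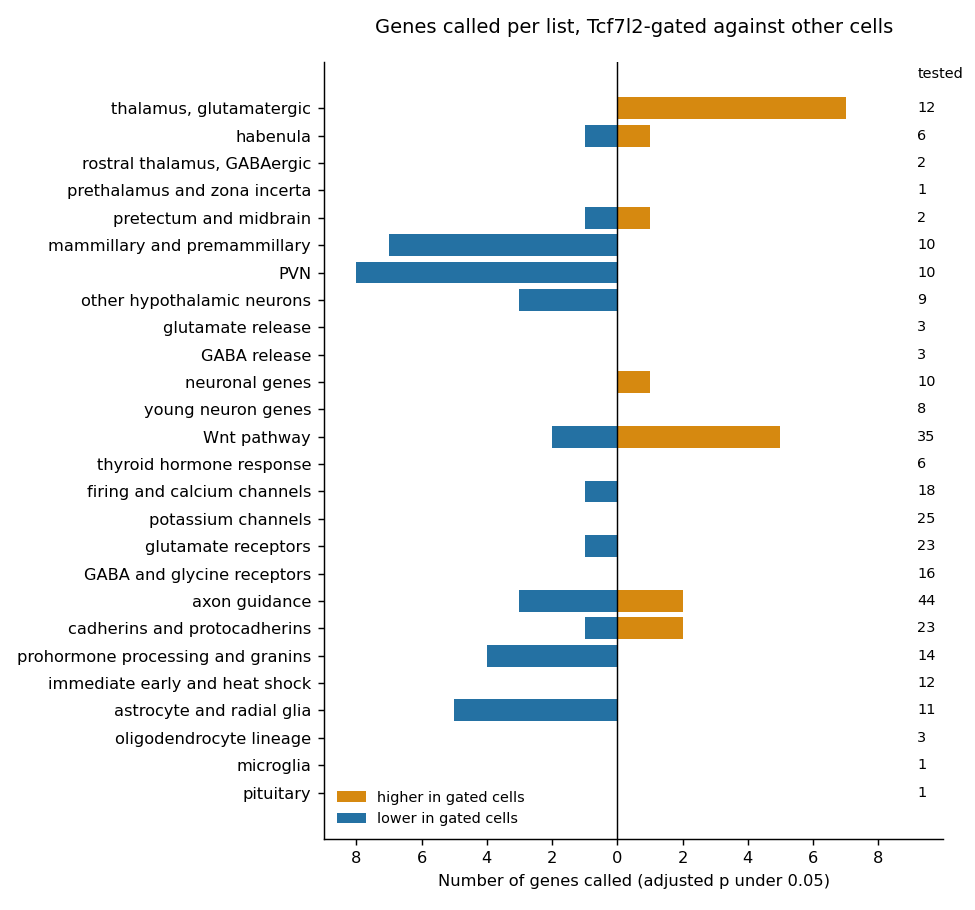
Number of genes per list (x axis) that passed at an adjusted p under 0.05, higher to the right and lower to the left of 0, with the number tested at the right edge. The thalamus list has 7 higher and 0 lower genes, and the PVN list has 0 higher and 8 lower. Over all genes tested, 0.627% were higher and 0.918% lower.

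Tcf7l2-gated cells were not uniform. Of the other 5 markers, 15 cells had none, 24 had 1, 32 had 2, 23 had 3, 15 had 4 and 6 had all 5. At least 1 was found in 13 of 17 Sim1 heterozygous gated cells (76.5%) and 87 of 98 control gated cells (88.8%). The 15 cells with none had a median of 1423 UMIs, and Stmn2 was found in all 15, Slc17a6 in 9 and Zic4, a zinc-finger factor gene, in 6. Their low depth limits what can be said of missing markers.

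Markers overlapped unevenly in single cells. Of 24 cells with Nek7, 23 had Lhx9, and of 19 with Gbx2, 17 had Lhx9. Prox1 went with Kitl in 37 of 46 cells, and Sox2 with Kitl in 24 of 28. Shox2 was found in 37.0% of cells with Lhx9 and 33.3% of cells without it, and 4 of 41 cells with Shox2 had Gbx2. Cells with Kitl had a median of 3792 UMIs and those without it 1991, and the part of depth in these pairs was not tested.

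When all cells were clustered without Tcf7l2, 1 cluster was led by Lhx9, Kitl, Prox1, Shox2, Lgals1, Gbx2, Sox2 and Nek7. It held 127 cells, 15 Sim1 heterozygous and 112 control, and 83 of the 115 gated cells (9 of 17 Sim1 heterozygous and 74 of 98 control). The other 44 cells of that cluster had under 3 Tcf7l2 UMIs, at a median depth of 1469 UMIs, and 40 of them had at least 1 of the other 5 markers. Lhx9 was at 476 CPM in the 83 gated cells and 383 CPM in these 44, and Kitl at 975 and 664 CPM. In the same order, Shox2 was at 159 and 166 CPM and Gbx2 at 76.0 and 76.6 CPM. Prox1 was at 436 and 140 CPM, Lhx2 at 92.5 and 25.5 CPM and Foxp2 at 221 and 102 CPM. Some genes were higher in the 44 cells, from few UMIs there. Otx2 was at 59.5 and 179 CPM and Gng8 at 23.1 and 128 CPM. Pou4f1 was at 9.91 and 102 CPM (8 UMIs in the 44) and Otp at 3.30 and 319 CPM.

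The remaining 32 gated cells lay in 6 other clusters, with 9 in 1 led by Gh, Nr2f2 and Nrgn, 8 in 1 led by Neurod6 and Nfib, 7 in 1 led by Trh and Zic1 and 5 in a shallow cluster led by Kcnq1ot1 and Atp9a. Of the 32, 19 (59.4%) had at least 1 of the other 5 markers, against 81 of 83 (97.6%) in the main cluster, at medians of 2089.5 and 2765 UMIs. Their marker balance differed. Shox2 was at 455 CPM in them and 159 CPM in the main cluster's gated cells, and the nuclear receptor gene Nr2f2 at 239.9 and 46.3 CPM. Prox1 was at 25.3 and 436 CPM, Kitl at 88.4 and 975 CPM, and Lhx9 at 101 and 476 CPM. Sox2 and Lgals1 had 0 UMIs in the 32 cells, whereas Slc17a6 was at 1061 CPM there and 734 CPM in the main cluster's gated cells. Clusters were formed from these genes, so the contrast carries no test. Doublets were not removed, and their part among the 32 was not tested.

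**Figure D4:**
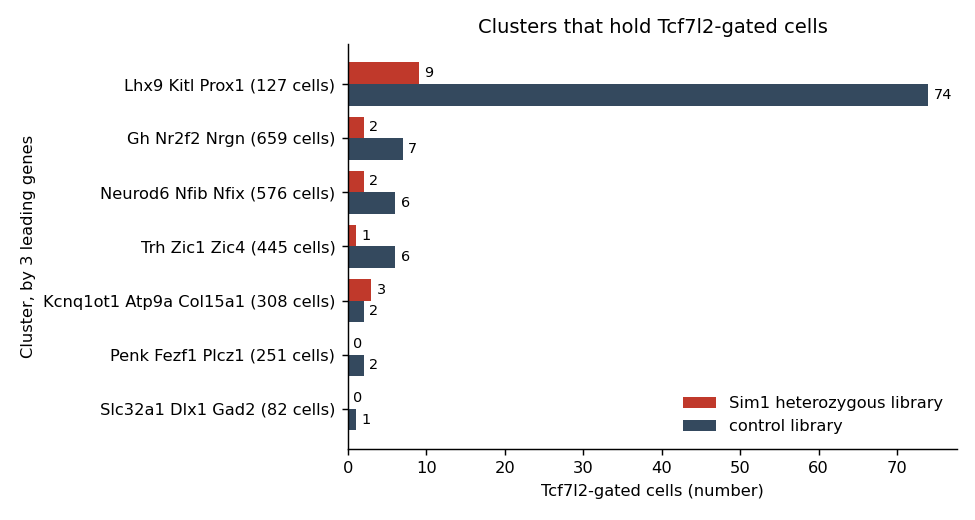
Number of Tcf7l2-gated cells (x axis) in each cluster that holds any (y axis, 3 leading genes and total cells), with the Sim1 heterozygous library above the control library. The Lhx9, Kitl and Prox1 cluster holds 9 Sim1 heterozygous and 74 control gated cells.

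The design also set Sim1 heterozygous against control cells, with 1 library each. There is no replicate of either genotype, so the differences below are between 2 libraries, no p-value is given and 95% intervals cover counting error only. Gated cells were 17 of 2454 Sim1 heterozygous cells (0.693%, Clopper-Pearson interval 0.404% to 1.11%) and 98 of 2806 control cells (3.49%, 2.84% to 4.24%). The ratio of the shares was 0.198 (conditional exact interval 0.111 to 0.334). After thinning to 1000 UMIs with a threshold of 2 Tcf7l2 UMIs, 14 of 1704 (0.822%) Sim1 heterozygous and 85 of 2442 (3.48%) control cells were gated, a ratio of 0.236 (0.124 to 0.418). With 1 pool per genotype, the genotype, the pups, the dissection and the sort cannot be told apart.

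Among gated cells, 4023 genes had at least 20 UMIs. Of these, 514 (12.8%) differed by at least 2-fold, 274 (6.81%) higher and 240 (5.97%) lower in Sim1 heterozygous cells, with a median log2 ratio of 0.10. Tcf7l2 itself differed little, with a log2 ratio of -0.07 (-0.29 to 0.13), although the rule sets its lower bound.

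The other 5 markers spread on both sides of 0. The log2 ratio of Sim1 heterozygous over control gated cells was -0.72 for Lhx9 (-1.56 to -0.08), 0.48 for Shox2 (-0.35 to 1.17), 0.44 for Prox1 (-0.20 to 0.99), -0.43 for Kitl (-0.94 to 0.00) and -0.61 for Nek7 (-2.85 to 0.62). With each cell given equal weight, Prox1 turned to -0.47. With all UMIs summed, none of these 5 reached a 2-fold difference, whereas Nek7 was at -1.28 with equal weight per cell and Lhx9 at -1.03 at a threshold of 2 Tcf7l2 UMIs.

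Calb2, the calretinin gene, had 358 CPM in Sim1 heterozygous gated cells (27 UMIs in 8 cells) and 972 CPM in control gated cells (298 UMIs in 56 cells). Its log2 ratio was -1.39 (-2.07 to -0.87) in gated cells and -0.05 in other cells. Slc17a6 had 1340 and 669 CPM in Sim1 heterozygous and control gated cells, a log2 ratio of 1.01 (0.64 to 1.35), with 0.36 in other cells.

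Genes named by rank as higher rested on 11 to 25 UMIs in Sim1 heterozygous cells. Setd3, an actin histidine methyltransferase gene, had 13 UMIs in Sim1 heterozygous and 8 in control gated cells (log2 ratio 2.66, 1.34 to 4.20). The log2 ratio was 2.40 for Plekha1, 2.30 for Disp2, 2.29 for Hspa8, 2.26 for Lta4h and 2.08 for Tmem127. With equal weight per cell, Setd3 was at 1.92 and Plekha1 at 3.01. The heat shock gene Hspa8 was also higher in the Sim1 heterozygous library over all other cells, with a log2 ratio of 4.04, whereas Lta4h was at -0.02 there.

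Of the genes lower in Sim1 heterozygous gated cells, the growth hormone gene Gh had 0 UMIs against 68 in control gated cells, at least 5.57-fold lower. Gh had 0 UMIs in other Sim1 heterozygous cells too, against 2139 in other control cells. Cd24a, a surface glycoprotein gene, had 0 UMIs against 46 in control gated cells, at least 3.77-fold lower, and its log2 ratio in other cells was -1.02. The translation factor gene Eif1b had 7 and 117 UMIs in Sim1 heterozygous and control gated cells (log2 ratio -1.86, -3.39 to -0.95). Zfas1 and Fh1 had 1 UMI each in Sim1 heterozygous gated cells, against 51 and 46 in control gated cells, with log2 ratios of -2.68 (-8.98 to -1.11) and -2.53 (-8.83 to -0.95). With equal weight per cell, Fh1 was at -0.97, and at a threshold of 2 Tcf7l2 UMIs, Zfas1 was at -1.45 and Fh1 at -1.86.

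Sim1 had 0 and 2 UMIs in Sim1 heterozygous and control gated cells, which allows no ratio, and no source used here gives the deleted part of the gene. In other cells Sim1 had 92.9 CPM in the Sim1 heterozygous and 117 CPM in the control library (log2 ratio -0.34). Irx3 and Irx5, the homeobox genes of the study's title, had 0 UMIs each in Sim1 heterozygous and 1 UMI each in control gated cells, so no difference was detectable at this depth.

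**Figure D5:**
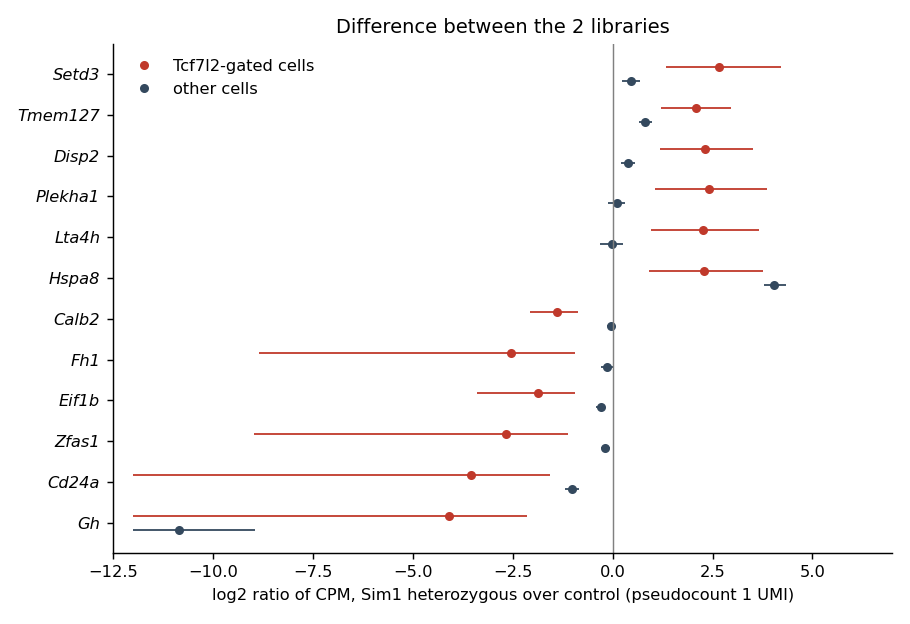
The log2 ratio of CPM, Sim1 heterozygous over control (x axis, pseudocount of 1 UMI), for the 12 genes named by rank (y axis), in Tcf7l2-gated cells above other cells, with 95% counting intervals drawn to at most 12 on the lower side. Hspa8 and Gh differ in the same direction in other cells, at 4.04 for Hspa8, and points at 0 UMIs (Gh and Cd24a) are set by the pseudocount.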

How the data were processed

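The authors deposited UMI counts per gene and barcode, as 1 table per library and 1 merged table, which were identical. Per the submitters' processing notes, bcl2fastq, Picard, STAR 2.6.0b, Seurat 3 and mm10 were used, with no stated role. No source used here gives the counter, its annotation or its use of strand. Of 24905 gene symbols, 23481 (94.3%) were found in GENCODE M21.

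Barcodes under 300 genes were left out (22 Sim1 heterozygous, 1 control). No doublet caller was run, so doublets must be taken as still present. Sums per class and library were tested with edgeR 4.0.16 (TMM, filterByExpr, library block, Benjamini-Hochberg adjustment over all genes) in R 4.3.3. The SE given after a log2 fold change was not estimated by the fit itself. It was derived as the absolute log2 fold change over the square root of the quasi-likelihood F statistic. DESeq2 1.42.0 was an alternative. Clustering used scanpy 1.11.5 with 2000 variable genes, 30 components, 20 neighbours and Leiden resolution 1. Shares and ratios used Python 3.11.15 and scipy 1.17.1. Genotype ratios had a pseudocount of 1 UMI. The fit was also run on simulated sums drawn with its own dispersion. Those sums did not model UMIs clumped in single cells, so they cannot check p-values of genes carried by few cells.

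The members, markers and lists were chosen with earlier results of these data known. Named genes were the 16 highest and 10 lowest log2 fold changes among those that passed with 1 direction in both libraries. Higher genes needed at least 20 UMIs in gated cells, and lower genes at least 20 UMIs expected there from the other cells. Up to 6 genes per list were also named (beyond that, list members that passed were named after their values were seen). The 6 highest and 6 lowest genotype ratios were taken by the interval bound nearest 0. Mitochondrial, ribosomal, sex-linked and unnamed genes were left out of the ranking. Alternatives changed scaling, filters, the Tcf7l2 threshold, the comparison cells, weights and the libraries used. Some list members are not reported here.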

Additional observations from a re-analysis of the deposited data

Results flagged for a closer look

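Genes whose level in Tcf7l2-gated cells relative to other cells went in opposite directions in the 2 libraries, each with a counting interval clear of 0, were taken up here. The difference between the libraries was not tested, since each genotype has 1 library. Dnajb1, a heat shock co-chaperone gene, had a log2 ratio of gated over other cells of 1.64 in the Sim1 heterozygous library and -0.95 in the control library, from 9 and 6 UMIs. Plekha1 had 1.39 in the Sim1 heterozygous and -0.90 in the control library, and Disp2 had 1.10 and -0.82. Eif1b, a translation factor gene, had -1.06 in the Sim1 heterozygous and 0.50 in the control library. The Sim1 heterozygous values rest on 9 UMIs for Dnajb1, 12 for Plekha1, 16 for Disp2 and 7 for Eif1b.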

How the results depend on the processing

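Of 207 genes that passed between Tcf7l2-gated and other cells, DESeq2 gave 59 (33 higher, 26 lower), 58 of them shared with the same sign. The class sums of a library are paired by that library, and without the replicate block 130 passed (65 higher and 65 lower), 123 of them shared. Without TMM the split was 107 higher and 94 lower. In Sim1 heterozygous over control gated cells, the 514 genes at least 2-fold apart became 1310 (796 higher, 514 lower) at 10 UMIs and 791 (390 higher, 401 lower) with equal weight per cell. Gng8 reversed to -0.44 at 5 Tcf7l2 UMIs, and Prox1, Sim1 heterozygous over control, to -0.47 with equal weight per cell. Alternatives added after seeing the data gave 576 genes without cells of over 10000 UMIs and 461 in the Lhx9 and Kitl cluster alone. The share ratio ranged from 0.188 to 0.247. The labels give no replicate numbers shared by groups. Depth limits Sim1 heterozygous gated cells most, since 17 cells gave 75360 UMIs.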

Other observations

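Genes of the Zic family of zinc-finger factors, chosen after their values were seen, were high in Tcf7l2-gated cells. Zic4 was at 599.7 CPM in gated cells of both libraries together and 103 CPM in other cells, and Zic1 at 432 and 109 CPM. Zic2 was at 68.1 CPM in gated cells and 13.3 CPM in other cells, and Zic5 at 86.4 and 11.9 CPM. After thinning, Zic4 was found in 44.4% of gated, 6.41% of other and 0.8% of Avp-rich cells. The forkhead gene Foxp1, also chosen after its values were seen, was at 319.5 CPM in gated cells and 98.6 CPM in other cells, and at 389.9 CPM in gated cells of the Lhx9 and Kitl cluster against 50.5 CPM in the 32 gated cells elsewhere.

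The TCF/LEF letters CTTTGAT and their reverse complement ATCAAAG were searched in RefSeq promoter windows of GRCm38.p6, 250 bases before to 50 after each gene's start. Of the 16 higher genes and Tcf7l2, 13 had a window and 0 held a match, as did 0 of 6 lower genes with a window. Over all 32851 windows the share was 3.73%. No match says only that these letters are not in these windows.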
